A study of Mus musculus with 6 samples.

Results

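The genes described here are the heat shock proteins and chaperones named on the array: the Hspa (Hsp70), Hspb (small heat shock protein), Dnaja, Dnajb and Dnajc (Hsp40 or J protein) and Cct (chaperonin) genes, with Hspd1 and Hspe1. They were chosen by the gene name printed in the scanner output, which gave 63 genes of 27943 names. Of these, 62 were tested among 21503 genes; Dnajb7 was below background on all 6 arrays and was not tested. Expression was measured in MR 4-25, a mannitol recovered line, and in its parental line S49 Neo. S49 cells come from a T cell lymphoma of a mouse and grow unattached, and mannitol is a sugar alcohol that raises the osmolarity of culture medium. Both lines were grown in RPMI-1640 with 10% heat-inactivated serum at 7% CO2 and were labelled untreated. Each line had 3 samples with 1 single-dye (Cy3) Agilent array each. With 1 line of each kind, recovery from mannitol and other ways in which the lines differ cannot be told apart. No label says that the samples of a line were separate cultures, so the p-values cover only how these samples vary, which may be technical variation.

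Chaperones bind unfolded proteins and help them fold, move between compartments or be degraded. Hsp70 proteins do so in cycles of ATP hydrolysis that J proteins start, while chaperonins enclose a client in a chamber and small heat shock proteins hold unfolded proteins without using ATP. Many of these genes are induced through heat shock factor when proteins unfold in the cytosol, and a separate set is induced by the unfolded protein response of the endoplasmic reticulum. Lymphocytes that make many receptors and secreted proteins use both systems.

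Arrays were scaled to their own 75th percentile of signal, which was 872, 912 and 521 intensity units in MR 4-25 1, 2 and 3 and 988, 844 and 917 in Neo 1, 2 and 3. Every level below is a log2 signal relative to that percentile, and every difference is MR 4-25 minus Neo on the log2 scale. MR 4-25 3 had 61.3% of its probes well above background, against 69.9% to 76.3% on the other arrays. MR 4-25 3 and Neo 3 shared slide 2, and the other 4 arrays shared slide 1. All 8 T lymphocyte markers were above background on all 6 arrays, with a summed linear level of 254 to 279 in MR 4-25 and 268 to 307 in Neo, where 1 is the array's 75th percentile. Of the markers of other cells, 4 of 5 myeloid, 2 of 5 B lymphocyte and 2 of 3 fibroblast genes were above background on all 6 arrays. The summed level of the myeloid markers was 1.35 to 1.61 in MR 4-25 and 1.04 to 1.13 in Neo, that of the B lymphocyte markers 0.698 to 1.04 and 0.656 to 0.785, and that of the fibroblast markers 0.576 to 0.788 and 0.292 to 0.656. For 7 immediate early genes of cell handling, of which Jun was at background on every array, it was 45.1 to 94.3 in MR 4-25 and 25.3 to 51.8 in Neo. That sum was nearly all Junb and Ier2, since the others lay below the 75th percentile on every array. Of the myeloid markers, Lyz2 differed by 1.06, Csf1r by 0.27 and Adgre1 by 0.25, but Cd14 by −1.03 and Itgam by −0.43. The part of these cells and genes in the results below was not tested.

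None of the 62 chaperone genes passed the test: 0 were higher and 0 lower in MR 4-25 at a limma adjusted p under 0.05, against 1.2% of all genes tested. In such bulk RNA, fewer cells expressing a gene and less RNA per cell cannot be told apart. At an unadjusted p under 0.05 there were 4 higher and 4 lower, 12.9% of the members, against 13.2% of all genes. The 3 MR 4-25 arrays lay above all 3 Neo arrays for 7 members (11.3%, against 11.2% of all genes) and below all 3 for 13 members (21%, against 13.2%). Of the members, 41 had a mean signal at or above the array's 75th percentile. Among these, 26.8% lay below all 3 Neo arrays without overlap and 12.2% above, against 20.9% and 16.6% of all genes of such signal. The median difference was −0.04, against 0.01 over all genes, with −0.10 on slide 1 and 0.03 on slide 2. The difference was under 0.5 in size for 72.6% of members and 63.5% of all genes. The 95% interval lay within 1, a 2-fold difference, for 38 members, and reached 1 or more in size for the other 24. A 2-fold difference was therefore outside the interval for 38 of 62 genes only.

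**Figure D1:**
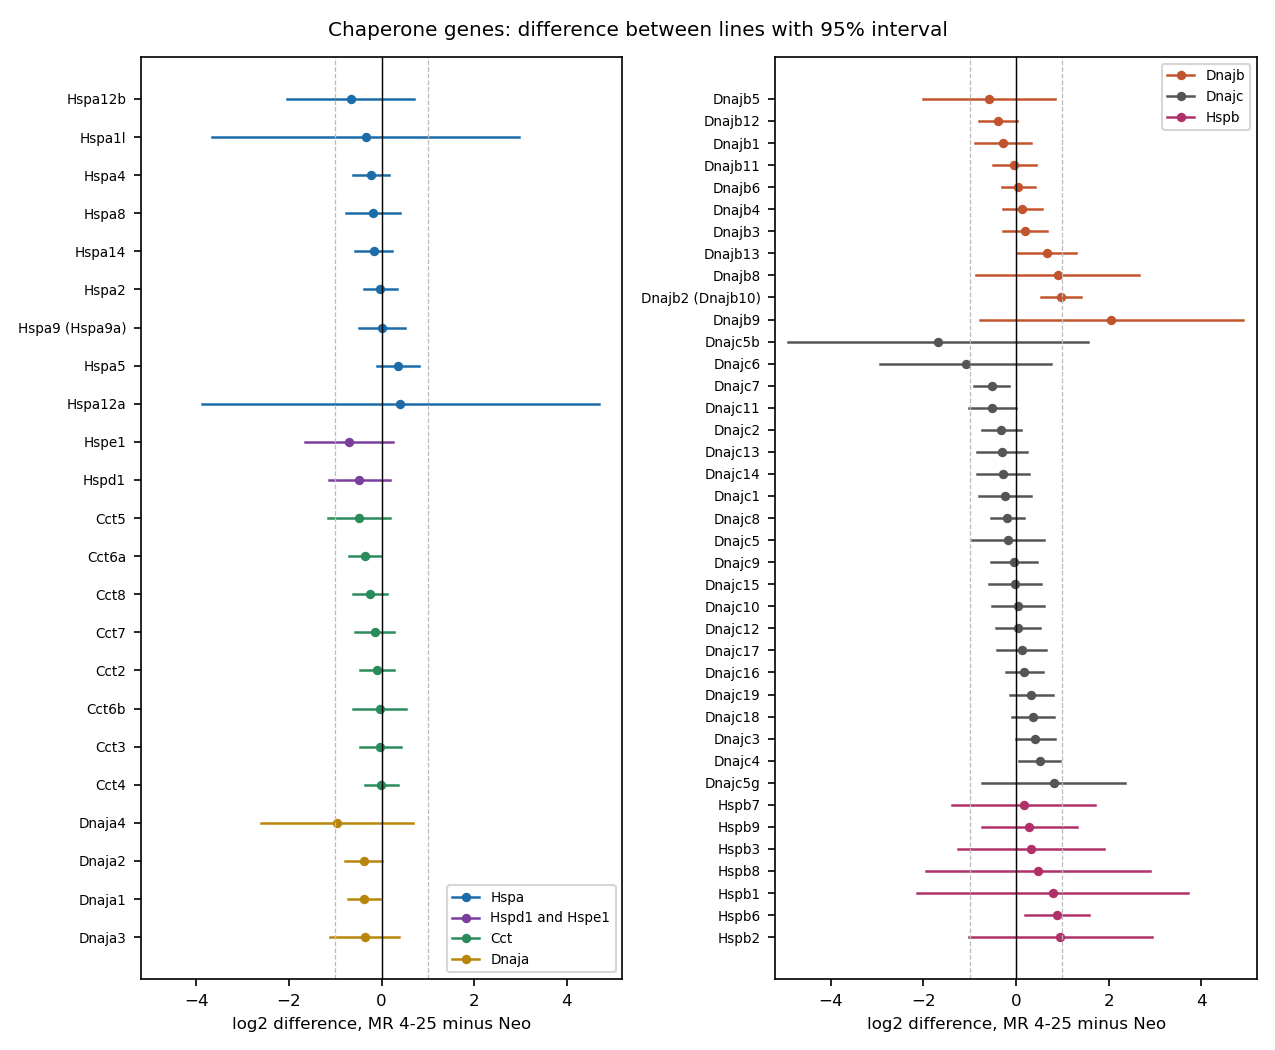
Log2 difference between MR 4-25 and Neo (horizontal axis, MR 4-25 minus Neo) for each of the 62 chaperone genes tested, coloured by family; lines are 95% intervals from limma, and dashed lines mark a 2-fold difference. All 8 Cct and all 4 Dnaja genes, on their brightest probes, lie left of 0 and all 7 Hspb genes right of it, with wide intervals for Dnajb9, Dnajc5b, Hspa12a, Hspa1l and Hspb1.

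None of the 9 Hsp70 genes passed the test. Hspa8, the constitutive cytosolic Hsp70 that uncoats clathrin vesicles, had levels of 7.00, 7.62 and 7.22 in MR 4-25 and 7.35, 7.71 and 7.32 in Neo. The lines overlapped, and the difference was −0.18 with a 95% interval of −0.77 to 0.40 (limma adjusted p = 0.801). Hspa9, the Hsp70 of mitochondria, named Hspa9a in the files, had 6.60, 6.57 and 6.15 in MR 4-25 and 6.62, 6.32 and 6.39 in Neo, with an interval of −0.50 to 0.50 around a difference near 0. Hspa5, also called BiP and the Hsp70 of the endoplasmic reticulum, had 6.93, 6.86 and 6.61 in MR 4-25 and 6.58, 6.51 and 6.25 in Neo. Its 3 MR 4-25 values lay above the 3 Neo values, with 0.35 on slide 1 and 0.36 on slide 2, but its interval of −0.09 to 0.80 held 0 (limma adjusted p = 0.492).

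Hspa4, an Hsp110-type protein that exchanges nucleotide on Hsp70, had 3.76, 3.96 and 3.81 in MR 4-25 and 4.02, 4.00 and 4.22 in Neo. Its 4 probes differed by −0.24, −1.31, −0.35 and −1.32, of which 3 did not overlap between lines, and none passed over all probes (limma adjusted p = 0.114 to 0.570). Hspa1l, an Hsp70 known from testis that is close in sequence to other Hsp70 genes, which its probe may also detect, spread widely. It had −4.31, −3.53 and 0.21 in MR 4-25 and −2.85, −2.72 and −1.04 in Neo; its value was highest on slide 2 in each line, and the difference was −1.14 on slide 1 and 1.24 on slide 2. Hspa12b, a distant Hsp70 relative known from endothelium, had −2.03, −2.22 and −3.95 in MR 4-25 and −2.03, −2.11 and −2.08 in Neo. Its difference of −0.66 was −0.06 without MR 4-25 3. Hspa2 and Hspa14 overlapped between lines, at −0.03 and −0.17. The other probe of Hspa2 differed by 1.17 and overlapped, with −1.71, −1.71 and 1.46 in MR 4-25. Hspa12a had −3.54, −3.84 and −6.97 in MR 4-25 and −3.54, −3.59 and −8.42 in Neo, low on slide 2 in each line, and its 0.40 was 1.49 without MR 4-25 3. Over the 9 Hspa genes the median was −0.17, or −0.06 without MR 4-25 3, with 2 positive and 7 negative differences.

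Hspd1 (Hsp60) and Hspe1 (Hsp10) form the folding chamber of the mitochondrial matrix and its lid, and are known to lie head to head on chromosome 1 with a promoter between them. Hspd1 had 7.34, 7.77 and 6.94 in MR 4-25 and 7.95, 7.93 and 7.63 in Neo, a difference of −0.48 (95% interval −1.14 to 0.17, limma adjusted p = 0.530), and −0.62 on its other probe. Hspe1 had 5.99, 6.29 and 5.03 in MR 4-25 and 6.46, 6.77 and 6.22 in Neo, a difference of −0.71 (−1.67 to 0.24, limma adjusted p = 0.527). In both genes 1 MR 4-25 value, that of replicate 2, reached into the Neo range, and MR 4-25 3 was the lowest of the 6 arrays. Without MR 4-25 3, Hspe1 differed by −0.34 and Hspd1 by −0.28. The RefSeq promoter windows of GRCm38.p6, which hold 300 bases around a gene's start, overlap for the pair. The window of Hspe1 is shown because it holds the letters of a heat shock element (GAA, any 2 bases, TTC, any 2 bases, GAA, searched on both strands) at 2 overlapping places, marked by capitals.
Hspe1, chr1:55087898-55088197, plus strand: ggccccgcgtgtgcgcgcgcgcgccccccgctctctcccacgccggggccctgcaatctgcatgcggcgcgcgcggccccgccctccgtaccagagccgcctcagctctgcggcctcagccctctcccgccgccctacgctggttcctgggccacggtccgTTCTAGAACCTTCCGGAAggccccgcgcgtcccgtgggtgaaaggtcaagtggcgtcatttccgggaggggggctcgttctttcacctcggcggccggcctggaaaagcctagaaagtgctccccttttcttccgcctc
That motif was found in 179 of 27025 genes with a window (0.662%) and in 3 of the 53 members matched to one (5.66%), namely Hspd1, Hspe1 and Dnajb6. Members without a window, Hspa8, Hspa9 and Cct4 among them, could not be searched. Outside the members, the motif also lies in the windows of Chordc1, which differed by −0.66 (−0.35 without MR 4-25 3), and Hsph1, which differed by −0.20. Dnajb6, a J protein that keeps aggregation-prone proteins soluble, had 3.17, 3.18 and 3.36 in MR 4-25 and 3.12, 3.22 and 3.22 in Neo. The 3 members with the motif had a median difference of −0.48 and the 49 tested members whose window lacked it −0.04. Since Hspd1 and Hspe1 share the stretch, this describes a single promoter and Dnajb6.

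The Cct genes encode subunits of the TRiC chaperonin, the cytosolic ring that folds actin and tubulin. On their brightest probes all 8 had a negative difference, from −0.49 to −0.00, with a median of −0.12 (−0.20 on slide 1 and −0.08 on slide 2). No subunit passed the test, and on the brightest probe the difference was under 0.5 in size for all 8. The other probes of Cct4 and Cct3 differed by −0.88 and −0.78, also lower without overlap (limma adjusted p = 0.0996 and 0.462 over all probes), where the brightest gave −0.00 and −0.03. Cct2 had 7.77, 7.91 and 7.91 in MR 4-25 and 7.93, 8.08 and 7.86 in Neo, so the lines overlapped. Cct6a had 2.94, 2.95 and 2.84 in MR 4-25 and 3.37, 3.24 and 3.20 in Neo. It lay lower on all 3 MR 4-25 arrays, by 0.36 on each slide (limma unadjusted p = 0.0485, adjusted p = 0.373). Cct5 had 6.75, 6.93 and 6.05 in MR 4-25 and 7.10, 7.13 and 6.97 in Neo, also without overlap, and its difference of −0.49 was −0.23 without MR 4-25 3. Cct8 was the third subunit that did not overlap, at −0.25. With 8 subunits no share can be read: 37.5% lay lower without overlap, against 20.9% of all genes at or above the array's 75th percentile. Of such genes, 4153 of 7806 had a negative difference. The 8 genes counted include both Cct6a and Cct6b, the latter at −0.04. Tcp1, the first subunit, whose name the selection did not match, is not among them and differed by −0.04.

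The Hsp90 genes and Hsph1, outside the selection because their names in the files do not match it, showed no separation. Hsp90aa1, the inducible cytosolic Hsp90, had 7.95, 8.56 and 8.31 in MR 4-25 and 7.85, 8.29 and 7.88 in Neo. Hsp90ab1, its constitutive relative, had 7.86, 7.94 and 8.24 in MR 4-25 and 8.07, 7.97 and 7.89 in Neo, with a 95% interval of −0.39 to 0.46 around 0.04. Hsp90b1, the Hsp90 of the endoplasmic reticulum, differed by 0.09 (−0.41 to 0.58), and Hsph1, listed as Hsp110, by −0.20 (−1.11 to 0.71). All 4 overlapped between lines.

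The J proteins of the Dnaja group, which work with cytosolic or mitochondrial Hsp70, had 4 negative differences of 4 on their brightest probes, with a median of −0.38. Of all genes tested, 10640 of 21503 had a negative difference. Dnaja1 had 5.45, 5.47 and 5.44 in MR 4-25 and 5.85, 5.90 and 5.73 in Neo. The 3 MR 4-25 values lay within a narrow band below all Neo values, with a difference of −0.37 (95% interval −0.72 to −0.03, limma unadjusted p = 0.0396, adjusted p = 0.344). Its other probes differed by −0.61 and −0.66 and did not overlap either. Dnaja2 had 3.53, 3.27 and 3.25 in MR 4-25 and 3.78, 3.82 and 3.63 in Neo, lower on every MR 4-25 array, with −0.39 on slide 1 and −0.38 on slide 2. Dnaja3, a mitochondrial member, differed by −0.37, and by −0.10 without MR 4-25 3, while its other probe differed by 0.30. Dnaja4 had −2.66, −2.77 and −4.91 in MR 4-25, where replicate 3 was below background, and −2.47, −2.56 and −2.42 in Neo; its difference of −0.96 was −0.23 without that array.

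In the Dnajb group, 7 of 11 differences were positive. Dnajb2, a J protein that delivers ubiquitinated clients to the proteasome and is known from neurons, came nearest to the threshold of all members. It is listed in the files as Dnajb10 and had 2.93, 2.64 and 2.63 in MR 4-25 and 1.80, 1.89 and 1.60 in Neo. The means were 2.74 ± 0.17 in MR 4-25 and 1.76 ± 0.15 in Neo (SD, n = 3 each), 1.96-fold higher in MR 4-25, and the lines were well apart on both slides, by 0.94 and 1.03. The difference was 0.97 ± 0.17 (SE, 95% interval 0.54 to 1.41, limma unadjusted p = 0.002, adjusted p = 0.0909), so it did not pass over all genes. It passed under 4 other processing choices, at a limma adjusted p of 0.0138 to 0.036, and its adjusted p was 0.224 with the replicate number as a block. The array carried 1 probe for it, shown because this value rests on it alone, at chr1:75468259-75468318 of build mm7 per the file headers.
Dnajb2 probe: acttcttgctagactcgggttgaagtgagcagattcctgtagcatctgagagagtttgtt

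Dnajb1, the founding Hsp40 and a partner of Hspa8 that heat induces, had 5.80, 6.02 and 5.40 in MR 4-25 and 6.10, 6.23 and 5.74 in Neo, a difference of −0.28 on its brightest probe and 0.21 on its other probe. Dnajb9, a J protein of the endoplasmic reticulum induced by unfolded proteins there, had the largest positive difference of the members tested, 2.06. It had −5.45, −5.41 and −3.06 in MR 4-25 and −8.13, −7.23 and −4.72 in Neo. Only 2 MR 4-25 arrays and 1 Neo array had it above background, the lines overlapped, and the interval ran from −0.78 to 4.89 (limma adjusted p = 0.539). Dnajb12, which sits in the membrane of the endoplasmic reticulum with its J domain in the cytosol, had 2.01, 1.86 and 1.87 in MR 4-25 and 2.42, 2.40 and 2.10 in Neo. It lay lower on all 3 MR 4-25 arrays, by 0.39, while its other probe differed by 0.22 and overlapped. Dnajb13, a J protein of sperm tails and cilia, had −3.09, −3.09 and −2.39 in MR 4-25 and −3.50, −3.37 and −3.68 in Neo, higher on every MR 4-25 array, by 0.35 on slide 1 and 1.29 on slide 2. Dnajb5, known from heart and muscle, had −1.77, −1.95 and −3.72 in MR 4-25 and −2.04, −1.65 and −1.97 in Neo. Its −0.59 became 0.03 without MR 4-25 3, and its other probes differed by 0.60 and 0.40 and overlapped. The other Dnajb genes tested, Dnajb3, Dnajb4, Dnajb6, Dnajb8 and Dnajb11, overlapped between lines on their brightest probes, with differences of −0.04 to 0.89. Another probe of Dnajb6 lay lower without overlap, by 0.26 (limma adjusted p = 0.549 over all probes).

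**Figure D2:**
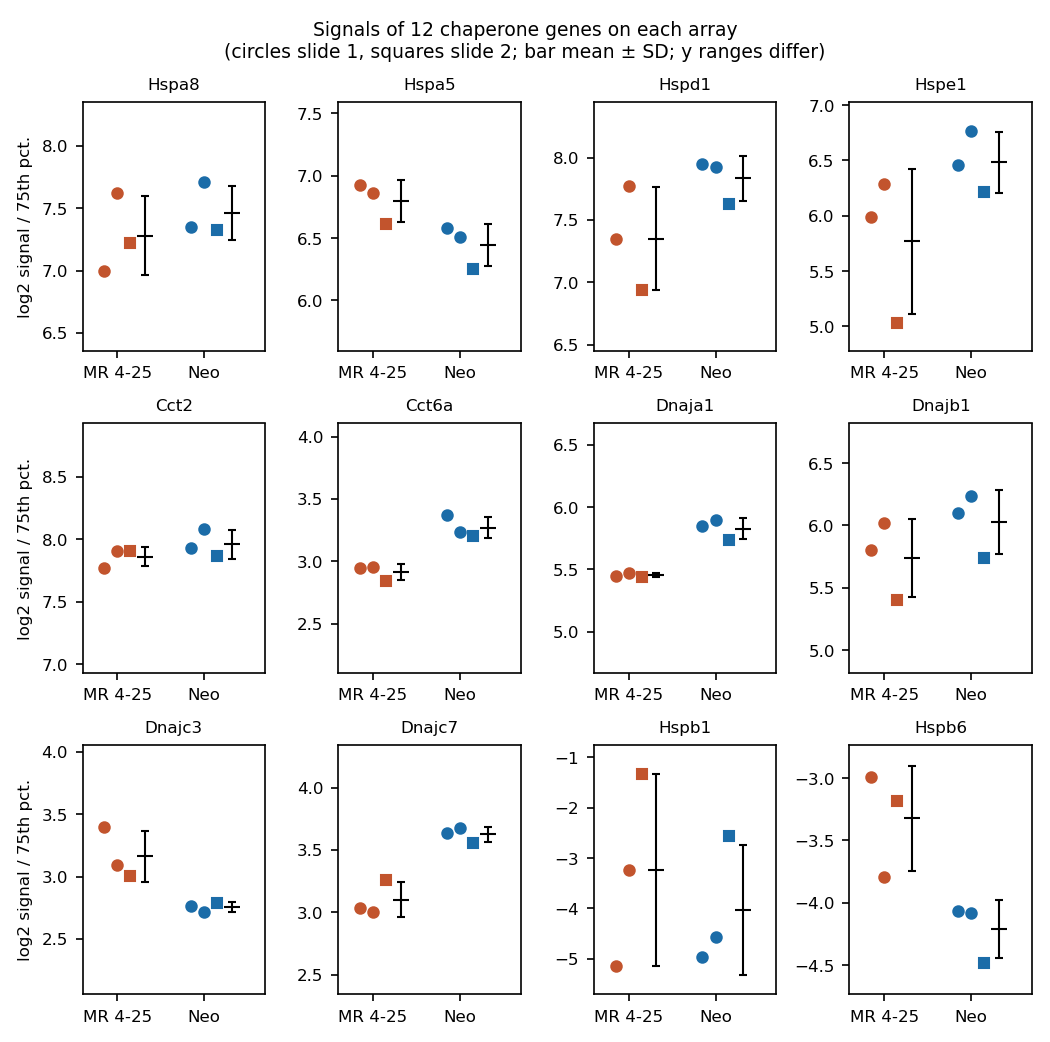
Log2 signal relative to the array's 75th percentile (vertical axis, ranges differ) on each array for 12 chaperone genes, with MR 4-25 left and Neo right; circles are slide 1, squares slide 2, and bars the mean ± SD of 3 arrays. Cct6a, Dnaja1 and Dnajc7 lie lower on every MR 4-25 array and Hspa5, Dnajc3 and Hspb6 higher, and none of the 12 passed the test.

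The Dnajc group is the most varied, with 21 members, 9 positive and 12 negative differences and a median of −0.04. Dnajc3, also called P58IPK, a J protein of the endoplasmic reticulum that works with Hspa5, had 3.40, 3.09 and 3.01 in MR 4-25 and 2.76, 2.71 and 2.79 in Neo. It was higher on all 3 MR 4-25 arrays, by 0.41 (95% interval −0.01 to 0.83, limma adjusted p = 0.389). Its other probes differed by 0.49, 0.23 and −0.36, so they did not give one direction. Dnajc4 had 1.28, 1.15 and 1.53 in MR 4-25 and 0.76, 0.96 and 0.70 in Neo, higher on every MR 4-25 array by 0.51 (limma unadjusted p = 0.0302, adjusted p = 0.305). Dnajc18 also lay higher on all 3, by 0.37.

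Dnajc7, also called TPR2, which binds both Hsp70 and Hsp90, had 3.03, 3.01 and 3.26 in MR 4-25 and 3.64, 3.68 and 3.56 in Neo. It was lower on every MR 4-25 array, by 0.64 on slide 1 and 0.30 on slide 2 (limma unadjusted p = 0.0159, adjusted p = 0.232). Dnajc11, which is bound to the mitochondrial membranes, had −0.23, 0.07 and −0.34 in MR 4-25 and 0.40, 0.53 and 0.11 in Neo, a difference of −0.51 on its brightest probe and 0.23 on its other probe. Dnajc2, a J protein bound to ribosomes, and Dnajc8, a splicing-associated one, also lay lower without overlap, by 0.33 and 0.19. Dnajc5g, a relative of the cysteine string protein of synaptic vesicles, had −2.45, −2.91 and −1.27 in MR 4-25 and −3.99, −2.55 and −2.50 in Neo, which overlapped. On their brightest probes, Dnajc1, Dnajc5, Dnajc9, Dnajc10, Dnajc12, Dnajc13, Dnajc14, Dnajc15, Dnajc16, Dnajc17 and Dnajc19 overlapped too, with differences of −0.31 to 0.33. Another probe of Dnajc5 lay higher without overlap, by 0.44, and another of Dnajc10 by 0.40. The other probe of Dnajc14 lay lower without overlap, by 0.59. None of these passed over all probes (limma adjusted p = 0.252 to 0.383).

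Some of the widest differences rested on a single array. Dnajc5b, another cysteine string protein relative, had −2.17, −2.44 and −6.72 in MR 4-25 and −1.86, −2.17 and −2.25 in Neo. Its −1.69, the largest negative difference of the members tested, was −0.21 without MR 4-25 3. Dnajc6, also called auxilin, which uncoats clathrin vesicles with Hspa8, had −4.37, −4.59 and −6.97 in MR 4-25 and −4.16, −4.24 and −4.26 in Neo, and its −1.09 was −0.26 without that array. Both were below background on MR 4-25 3. MR 4-25 3 was the lowest of the 6 arrays for 20 of 62 members (32.3%) and for 32.1% of all genes tested. The sign of the difference was the same on both slides for 45 members and differed for 17, and the difference was under 0.5 in size for 51 members on slide 1 and 31 on slide 2.

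**Figure D3:**
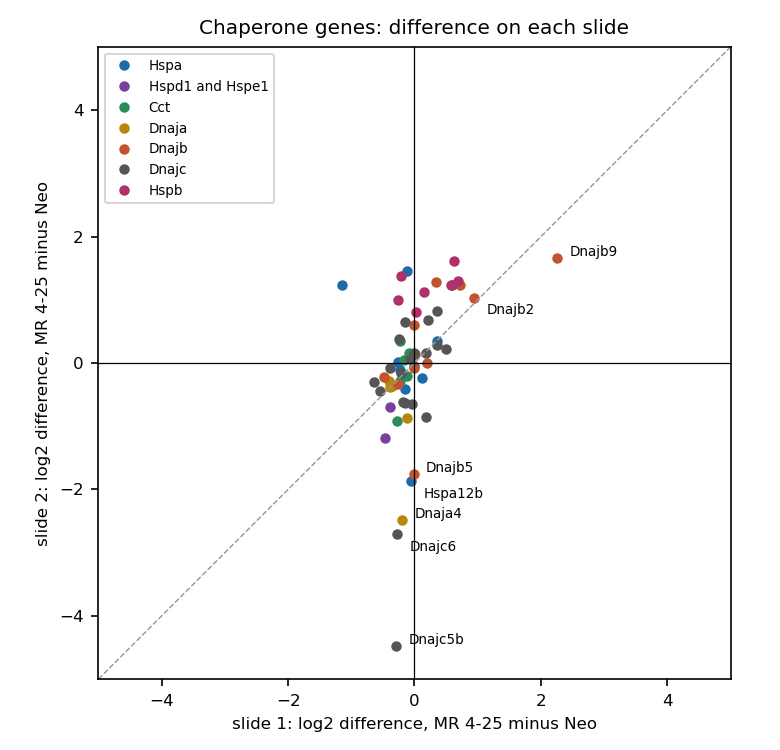
Log2 difference between MR 4-25 and Neo on slide 1 (horizontal axis, 2 arrays of each line) against slide 2 (vertical axis, 1 array of each line) for the 62 chaperone genes tested, coloured by family; the dashed line marks equal differences. Dnajb2 lies near the dashed line at 0.94 and 1.03, while Dnajc5b, Dnajc6, Dnaja4, Hspa12b and Dnajb5 lie near 0 on slide 1 and between −1.75 and −4.47 on slide 2.

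On their brightest probes all 7 small heat shock proteins had a positive difference, with a median of 0.47, but 0.15 on slide 1 and 1.23 on slide 2. Hspb6, known from muscle, had −2.99, −3.79 and −3.18 in MR 4-25 and −4.07, −4.08 and −4.48 in Neo. It was the one small heat shock protein that did not overlap, higher by 0.89 (95% interval 0.20 to 1.58, limma unadjusted p = 0.0207, adjusted p = 0.256). Hspb1 (Hsp25 in mouse), which is induced by stress and stabilises actin filaments, had −5.14, −3.24 and −1.32 in MR 4-25 and −4.97, −4.57 and −2.55 in Neo. In each line its value was highest on slide 2, and the difference of 0.79 was −0.16 without MR 4-25 3. Hspb2, Hspb3, Hspb7, Hspb8 and Hspb9 overlapped, with differences of 0.16 to 0.95. Hspb9 alone among these was above background on every array. On slide 1, Hspb3 and Hspb7 were lower in MR 4-25, at −0.22 and −0.26. The other probes of Hspb2 and Hspb7 differed by −0.98 and −0.06, and Hspb3 by −0.28 without MR 4-25 3. Over the 21 members whose mean signal was below the array's 75th percentile, the median difference was −0.01 on slide 1 and 1.12 on slide 2, against −0.01 and 0.24 over all such genes. Of all such genes, 7210 of 13697 had a positive difference.

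Compartments were assigned after the values were seen. The 6 members that act inside the lumen of the endoplasmic reticulum had a median difference of 0.20. The median was 0.17 on slide 1 and 0.18 on slide 2. Of the 6, 4 were positive, namely Dnajb9 (2.06), Dnajc3 (0.41), Hspa5 (0.35) and Dnajc10 (0.04). Dnajb11 (−0.04) and Dnajc1 (−0.24) were negative. Dnajb9 was above background on 2 MR 4-25 arrays and 1 Neo array only. The 7 members of mitochondria had a median of −0.37, with −0.12 on slide 1 and −0.44 on slide 2, and −0.10 without MR 4-25 3. Of the first, Hspa5 and Dnajc3 were the 2 that lay higher without overlap and none lay lower so, against 11.2% and 13.2% of all genes, a small group from which no share can be read. Both hold the letters of the ER stress element (CCAAT, any 9 bases, CCACG, searched on both strands), found in 37 of 27025 genes (0.137%) and in 2 of 53 members (3.77%). The RefSeq windows of GRCm38.p6 are shown for this reason, with the motif in capitals.
Hspa5, chr2:34771840-34772139, plus strand: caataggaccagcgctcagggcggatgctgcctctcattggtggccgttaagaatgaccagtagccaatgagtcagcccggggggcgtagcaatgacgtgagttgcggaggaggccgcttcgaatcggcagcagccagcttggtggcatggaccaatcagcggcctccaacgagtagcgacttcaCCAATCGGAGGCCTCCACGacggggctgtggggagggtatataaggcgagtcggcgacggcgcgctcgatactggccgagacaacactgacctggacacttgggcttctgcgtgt
Dnajc3, chr14:118937682-118937981, plus strand: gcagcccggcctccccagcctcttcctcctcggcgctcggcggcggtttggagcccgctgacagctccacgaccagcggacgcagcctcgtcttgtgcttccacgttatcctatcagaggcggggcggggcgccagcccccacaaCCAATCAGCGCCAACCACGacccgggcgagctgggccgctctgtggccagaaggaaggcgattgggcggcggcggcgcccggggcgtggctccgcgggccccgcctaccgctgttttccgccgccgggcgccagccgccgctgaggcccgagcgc
The motif also lies in the windows of Calr and Canx, lectin chaperones of the endoplasmic reticulum, of Pdia6, a disulfide isomerase, and of Hsp90b1, at 2 places in the last. Of these, Calr lay higher on every MR 4-25 array, by 0.51, while Canx differed by 0.07, Pdia6 by 0.35 and Hsp90b1 by 0.09.

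Other genes that work with chaperones were taken from a list of co-chaperones, chaperone regulators and folding enzymes. All 60 genes of the list were tested and 0 passed in either direction, with a median of 0.04. At an unadjusted p under 0.05, 3 were higher and 4 lower (11.7%, against 13.2% of all genes), and 9 lay higher and 9 lower without overlap (15% each, against 11.2% and 13.2%). P4hb, protein disulfide isomerase, had 6.05, 6.15 and 6.43 in MR 4-25 and 5.03, 5.14 and 5.04 in Neo. It was higher on every MR 4-25 array, 2.20-fold, with a difference of 1.14 (95% interval 0.72 to 1.55, limma adjusted p = 0.0556). Pdia4, another disulfide isomerase, had 3.53, 3.76 and 3.86 in MR 4-25 and 2.86, 3.07 and 2.78 in Neo, a difference of 0.81 (limma adjusted p = 0.131). Sdf2l1, a partner of Hspa5 in the endoplasmic reticulum, differed by 0.54 and also did not overlap. Among those lower on every MR 4-25 array were Chordc1, an Hsp90 co-chaperone, by 0.66 (0.35 without MR 4-25 3), Ahsa1, the activator of the Hsp90 ATPase, by 0.48, and Trap1, the Hsp90 of mitochondria, by 0.49. The 4 lower at a limma unadjusted p under 0.05 were Trap1, Bag2 (−0.48), Ptges3 (−0.46) and Sec63 of the endoplasmic reticulum (−0.48), all without overlap. The 3 higher at that limit were P4hb, Pdia4 and Calr. Hsf1, the main heat shock factor, overlapped between lines, with −0.27 on slide 1, 1.21 on slide 2 and −0.15 without MR 4-25 3. Stip1, which links Hsp70 to Hsp90, also overlapped, at −0.18, or −0.33 without MR 4-25 3.

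The array names are old, and 11 further genes carry a current symbol of these families under another name. They were looked up after the members' values were seen. Of the 11, all tested, 2 were higher in MR 4-25 past the test and 0 lower, against 0.665% and 0.539% of all genes. Dnajc28, a J protein homolog, is listed as ORF28 and was matched by a synonym, not an accession. It had −1.53, −1.47 and −1.40 in MR 4-25 and −3.55, −4.02 and −3.89 in Neo, with the lines far apart on both slides. The means were −1.47 ± 0.06 in MR 4-25 and −3.82 ± 0.24 in Neo (SD, n = 3 each), so it rose 5.11-fold, by 2.35 ± 0.18 (SE, limma adjusted p = 0.012). Its other probes were dim: 1 was above background on 2 MR 4-25 and 0 Neo arrays and was not tested, and 1 differed by 1.16 (limma adjusted p = 0.658 over all probes).

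Dnajc22, a membrane J protein whose fly relative Wurst acts in clathrin-mediated endocytosis, is listed as 2810451A06Rik and was matched by accession. It had 1.69, 1.55 and 1.50 in MR 4-25 and 0.43, 0.06 and 0.04 in Neo. The means were 1.58 ± 0.10 in MR 4-25 and 0.18 ± 0.22 in Neo (SD, n = 3 each), so it rose 2.65-fold, by 1.40 ± 0.18 (SE, limma adjusted p = 0.0385). The slides gave 1.37 and 1.46. Neither call held with the replicate number as a block (limma adjusted p = 0.105 for Dnajc28 and 0.140 for Dnajc22) or on slide 1 alone (0.0681 and 0.117). The call of Dnajc28 held without MR 4-25 3 (0.0292) and with slide as a block (0.0187) but not without any other array (0.0668 to 0.0962), and that of Dnajc22 held with slide as a block (0.042) but not without any single array (0.0711 to 0.218). The probes on which these values rest lie, in build mm7 per the file headers, at chr16:91664944-91665003 and chr15:99089866-99089925.
Dnajc28 probe: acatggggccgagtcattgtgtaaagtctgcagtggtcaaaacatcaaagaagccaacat
Dnajc22 probe: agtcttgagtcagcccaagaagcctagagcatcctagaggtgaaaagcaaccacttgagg
The other 9 did not pass; Dnajc21, a J protein of ribosome assembly, and Hspb11, a subunit of ciliary transport, both matched by synonym alone, lay higher on every MR 4-25 array, by 0.51 and 0.40.

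**Figure D4:**
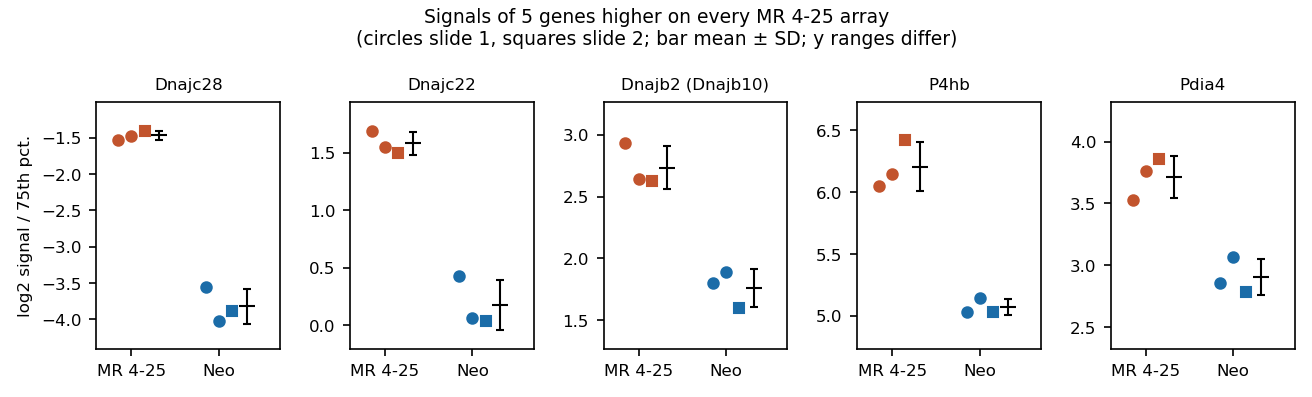
Log2 signal relative to the array's 75th percentile (vertical axis, ranges differ) on each array for Dnajc28, Dnajc22, Dnajb2, P4hb and Pdia4, with MR 4-25 left and Neo right; circles are slide 1, squares slide 2, and bars the mean ± SD of 3 arrays. All 3 MR 4-25 arrays lie above all 3 Neo arrays in each gene; Dnajc28 and Dnajc22 passed the test, the others did not.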

How the data were processed

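Total RNA was labelled with Cy3, 500 ng per sample, and hybridised to 1-colour Agilent arrays, per the labels' protocols. The deposited scanner output holds background-corrected intensity (processed signal) which per the file headers came from Agilent Feature Extraction, version 9.5.3.1 (9.5 per the submitters' processing notes), with probe positions on mm7. The deposited value table of the series held the same intensity values. Of the spots on an array, 43379 are for genes; the other 1639 are controls and were not used. Outlier spots were masked, and the deposited intensity turned to log2 and averaged over the spots of a probe (34 probes masked on an array were dropped). Each array was then centred by subtracting its 75th percentile, taken over gene spots on the log2 scale. The filter required a probe to be well above background on 3 or more of 6 arrays and kept 30965, and the brightest, by the mean over 6 arrays, stood for each name in the files. Saturated spots were kept. The number of arrays limits the precision.

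Lines were compared with limma 3.58.1 in R 4.3.3 (lmFit, eBayes), MR 4-25 minus Neo; p-values were adjusted by Benjamini-Hochberg over 21503 genes, with a threshold of 0.05. The fit was tested on simulated data. A further 2 matching names were left out of the selection and are not analysed here. Current symbols came from the RefSeq table of GRCm38.p6, by accession for 56 members and otherwise for 7, and sequences from RefSeq promoter windows, which matched 53 members. Where a motif was searched, a gene counted once if any of its windows held it.

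Genes given on every array were those past the test, in each family the 2 largest positive and 2 largest negative differences among genes above background on all 6 arrays, fixed genes of known role, and genes measured in a single line or with probes that split. The exceptions, described by family, compartment or current name, were chosen after their values were seen. Members and lists were chosen with earlier results of these data known.

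Deviations from the line's mean correlated at 0.293, 0.215 and 0.558 between same-numbered arrays, all above the pairing threshold of 0.1. A fit with a replicate block was therefore run as an alternative, while the main fit had no block. Crossed arrays of slide 1 correlated at 0.412 and 0.378, above the 0.293 and 0.215 of the same-numbered arrays there. The value of 0.558 came from the arrays that shared the other slide. These correlations therefore do not show that the numbers mark pairs. The 21 alternatives were normexp background correction with an offset of 50, quantile normalization, both, median scaling, RefSeq symbols, the value table, no filter or one on all 6 arrays, each probe separately, a mean over a gene's probes, array quality weights, a robust fit with an intensity trend, blocks by replicate number or by slide, the arrays of slide 1 only, and leaving out 1 array at a time.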

Additional observations from a re-analysis of the deposited data

How the results depend on the processing

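Of the 62 members, 0 passed in either direction with the replicate block and on slide 1 alone. A single member, Dnajb2, was higher past the threshold under 4 settings: 1 with normexp and quantile normalization (limma adjusted p = 0.0206), 1 with the filter on all 6 arrays (0.036), 1 with an intensity trend and robust fit (0.019) and 1 with array quality weights (0.0138). With array quality weights 2 members were lower, Dnajb12 and Dnajc7, and MR 4-25 3 had a weight of 0.132. Under RefSeq symbols 2 were higher, Dnajc28 and Dnajc22. The members' median difference was −0.17 with normexp, which moved the median of all genes to 0.34, and −0.14 to −0.018 when 1 array was left out. The number of all genes past the threshold was 259 as reported, 77 with normexp, 513 with normexp and quantile, 517 with the filter on 6 arrays, 401 over every probe, 719 with the trend, 2054 with weights, 127 on slide 1 alone, 1 with the replicate block, and 0 to 224 when 1 array was left out. The lowest adjusted p of a member with the replicate block was 0.163. The calls of Dnajc28 and Dnajc22 were also lost with normexp (limma adjusted p = 0.0755 and 0.212), that of Dnajc28 with the mean over probes (0.231), and that of Dnajc22 with median scaling (0.0741) and no filter (0.0706). P4hb passed under the same 4 settings as Dnajb2. No named gene's difference past a threshold turned its sign under an alternative. Differences that did not pass could turn. With normexp, Dnajb5 went from −0.59 to 0.29, Hspa12b from −0.66 to 0.26 and Hsp90aa1 from 0.27 to −0.10. With quantile normalization, Hsp90ab1 went from 0.04 to −0.22. The causes were not tested. With 3 arrays a line, a 2-fold difference lay inside the interval of 24 of 62 members.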
